A study of Mus musculus with 36 samples.

Results

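The sites compared here are all 3102 ChIP-seq peaks of GFP-tagged ZFP296 in mouse embryonic stem cells (ESCs) and 8246 CHD4 sites of ESCs, together 11348 of the 104813 intervals in the 9 peak lists of the series. A CHD4 site is a peak of CHD4 replicate 1 (11712 peaks) that overlaps a peak of CHD4 replicate 2 (29974 peaks) by at least 1 bp. ZFP296 was precipitated with a GFP antibody from a line labelled ZFP296-BAC in R1 ESCs, and CHD4 with a CHD4 antibody from wild-type R1 ESCs, all grown with serum, LIF and 2i. The study also profiled MBD3 and SIN3A in wild-type ESCs and CHD4 in neural progenitor cells (NPCs) differentiated from them, and their lists were used as further readouts of each site. SIN3A was profiled once with and once without spike-in chromatin, and CHD4 of NPCs has a single list. ZFP296 has a single list, so its peaks have no replicate check, and the Zfp296 knockout clones were not analysed here.

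CHD4 is the ATP-dependent remodelling subunit of the nucleosome remodelling and deacetylase (NuRD) complex, which slides nucleosomes and removes acetyl groups from histones through HDAC1 and HDAC2. MBD3 joins the remodelling and the deacetylase modules of NuRD. SIN3A is the scaffold of another complex that carries the same deacetylases. ZFP296 is a C2H2 zinc finger protein with high expression in pluripotent cells, and such fingers commonly contact DNA. In ESCs, NuRD is known for damping the transcription of pluripotency genes and for permitting exit from self-renewal.

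The labels and the lists differed at some points. The names of all 29974 peaks of CHD4 replicate 2 mention a BAC of Zfp219, whereas the labels of that sample give wild-type cells. Within 100 kb of the Zfp219 start, replicate 2 held 69 peaks with values up to 89.7, of 76 within 1 Mb, whereas replicate 1 held 9 and ZFP296 held 1. The study's methods describe the ZFP296 line as KH2 ESCs with a GFP-ZFP296 construct, not a BAC in R1 cells. Within 100 kb of the Zfp296 start, the ZFP296 list held 4 peaks, of 12 within 1 Mb. Omission of 1 Mb around both genes gave overlaps of 40.0% of ZFP296 peaks and 15.4% of CHD4 sites, against 39.9% and 15.4% with them. With 1 list per protein and replicate, every interval and p-value below covers the counting of sites only, and neighbouring sites are not independent.

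Example sequences follow first, since the classes differed in sequence. They are the central 200 bp of sites on mm9, with matches to the searched strings in capitals on the strand shown. The shared site and the CHD4 site without ZFP296 with the highest values are given, then shared and CHD4-only sites with the POU5F1 octamer (ATGCAAAT), and 1 shared site with repeated TTAGGG units. Of 1238 ZFP296 peaks on a CHD4 site, 8 held 2 such units (0.646%) and 0 held more.
shared site near Nemf, chr12:70461714-70461913, + strand: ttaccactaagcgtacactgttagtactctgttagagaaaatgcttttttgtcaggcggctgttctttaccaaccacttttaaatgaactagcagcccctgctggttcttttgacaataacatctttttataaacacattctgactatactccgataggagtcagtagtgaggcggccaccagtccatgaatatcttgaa
shared site near Tnrc18, chr5:143562385-143562584, + strand: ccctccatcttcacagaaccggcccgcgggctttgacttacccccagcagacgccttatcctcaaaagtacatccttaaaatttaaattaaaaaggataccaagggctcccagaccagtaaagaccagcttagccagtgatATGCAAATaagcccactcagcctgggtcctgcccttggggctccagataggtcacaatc
shared site near Rrm2b, chr15:37906882-37907081, + strand: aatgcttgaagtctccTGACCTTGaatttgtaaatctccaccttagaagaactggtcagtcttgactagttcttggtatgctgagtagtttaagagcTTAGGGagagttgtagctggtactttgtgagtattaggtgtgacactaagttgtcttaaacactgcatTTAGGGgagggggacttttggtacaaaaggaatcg
CHD4 site near Bcar3 without ZFP296, chr3:122138073-122138272, + strand: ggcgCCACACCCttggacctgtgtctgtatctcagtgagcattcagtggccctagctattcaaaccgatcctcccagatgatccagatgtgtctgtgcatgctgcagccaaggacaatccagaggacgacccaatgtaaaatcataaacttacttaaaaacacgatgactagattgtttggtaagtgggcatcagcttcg
CHD4 site near Phc1 without ZFP296, chr6:122292415-122292614, + strand: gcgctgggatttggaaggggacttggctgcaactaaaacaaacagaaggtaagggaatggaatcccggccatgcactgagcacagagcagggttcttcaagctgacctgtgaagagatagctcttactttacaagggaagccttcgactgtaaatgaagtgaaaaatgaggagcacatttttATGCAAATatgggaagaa
The Nemf site held none of the 13 strings, and the Bcar3 site held a KLF4 string. The Rrm2b site held 2 separate TTAGGG units and an ESRRB string. Of these sites, those near Nemf and Phc1 were intergenic, at 3.66 kb and 1.94 kb upstream of the gene start, and the others lay in introns.

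The first question was how far ZFP296 and CHD4 occupy the same positions. Of 3102 ZFP296 peaks, 1239 lay on a CHD4 site (39.9%, 95% exact interval 38.2% to 41.7%). Seen from CHD4, 1268 of 8246 sites carried a ZFP296 peak (15.4%, interval 14.6% to 16.2%). A further 915 ZFP296 peaks (29.5%) met a CHD4 peak but no site, 818 of them a peak of replicate 2 only, and 948 (30.6%) met no CHD4 peak in either list. The shares depended on the CHD4 list. With a single list, 66.1% of ZFP296 peaks met a replicate 2 peak and 43.1% met a replicate 1 peak. Seen from CHD4, 7.09% of replicate 2 peaks and 11.7% of replicate 1 peaks carried ZFP296. Midpoints of shared peaks lay a median of 66 bp apart (interval 61 to 72 bp), and 66.7% within 100 bp, a distance that the overlap rule itself limits.

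Sharing rose with the value of a peak, the authors' −log10 value, which ranks peaks within a list. Over 10 groups of equal size, 28.0% of the ZFP296 peaks with the lowest values lay on a CHD4 site, and 59.0% of those with the highest (interval 53.3% to 64.6%). Among CHD4 sites ranked by replicate 1, the shares with ZFP296 were 10.1% and 25.6% in the lowest and highest groups. Ranked by replicate 2, the share was 24.2% in group 9 and 20.1% in group 10, whose intervals overlap. Shared CHD4 sites had a median value of 10.3 in replicate 1 and 14.3 in replicate 2, against 8.66 and 11.7 for sites without ZFP296. They were also wider, with medians of 321 bp and 238 bp, and a wider interval can overlap more. In the group of highest ZFP296 values, 183 of 310 peaks had a CHD4 site.

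**Figure D1:**
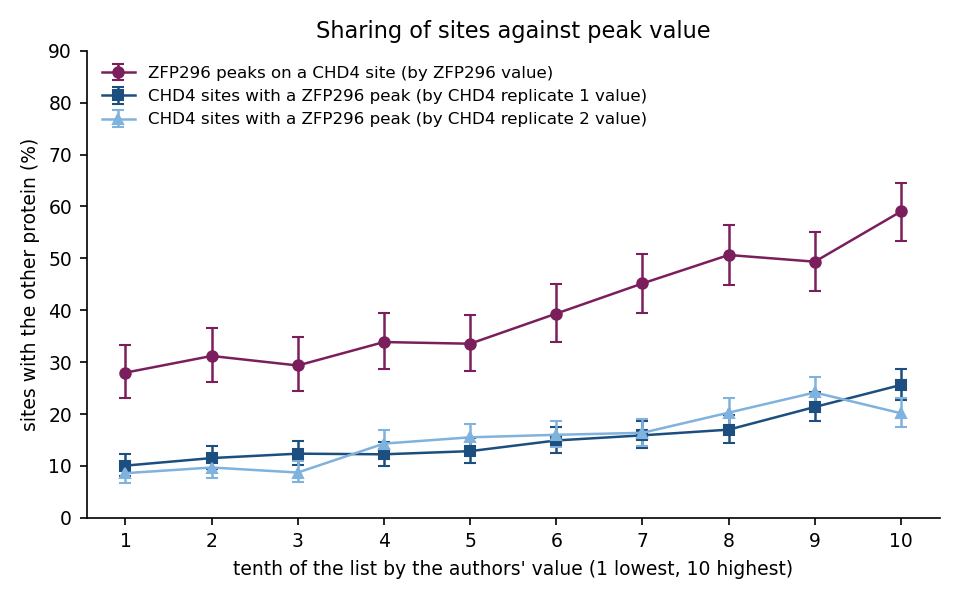
Share of sites with the other protein (y axis, %) against the rank group of the list by the authors' value (x axis, 10 groups), for ZFP296 peaks and for CHD4 sites ranked by either replicate, with 95% exact intervals as bars. The ZFP296 curve runs from 28.0% to 59.0%, and the CHD4 curve by replicate 1 from 10.1% to 25.6%.

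Shared sites lay away from gene starts more often than sites of either protein alone. A TSS window ran from 1 kb upstream to 5 kb downstream of the start of a protein-coding gene, and such windows cover 4.84% of chromosomes 1 to 19, X and Y. On these chromosomes, 165 of 1267 CHD4 sites with ZFP296 lay in a TSS window (13.02%), against 1464 of 6965 without ZFP296 (21.0%). This gave an odds ratio (OR) of 0.56 (95% interval 0.47 to 0.67, adjusted p = 3.88e-11, Fisher's exact test, two-sided here and throughout, with p adjusted over 36 tests). Among ZFP296 peaks, 13.3% of 1238 on a CHD4 site and 28.7% of 1849 without a site lay there (OR 0.38, interval 0.31 to 0.46, adjusted p = 4.82e-24, Fisher's exact test). The share was 22.1% of 914 peaks that met a CHD4 peak but no site and 35.2% of the 935 peaks with no CHD4 peak. Median distances to the nearest gene start followed the same order, at 20.5 kb (interval 18.5 to 23.2 kb), 16.0 kb (13.3 to 18.2 kb) and 10.7 kb (9.05 to 13.1 kb). CHD4 sites with and without ZFP296 had medians of 20.7 kb (18.7 to 23.2 kb) and 14.8 kb (14.1 to 15.5 kb). Shared ZFP296 peaks were intergenic at 49.9% and intronic at 34.0%, and peaks with no CHD4 peak at 33.6% and 25.7%. CHD4 sites were intergenic at 50.5% with and 49.4% without ZFP296, and intronic at 33.9% and 27.8%.

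**Figure D2:**
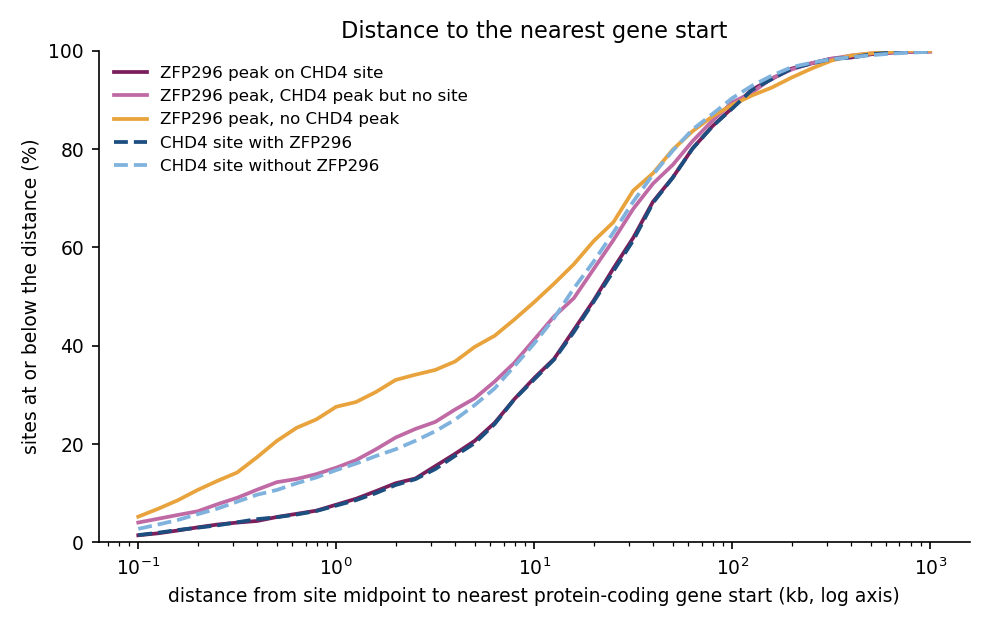
Cumulative share of sites (y axis, %) against the distance from the site midpoint to the nearest protein-coding gene start (x axis, kb, log scale), for 3 classes of ZFP296 peaks (solid) and CHD4 sites with and without ZFP296 (dashed). The curve of ZFP296 peaks with no CHD4 peak lies highest up to 10 kb, and those of shared sites lie lowest, with medians of 20.5 kb and 20.7 kb.

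CpG-rich sequence was divided in the same way. A centre was called CpG-rich where its 200 bp had a GC content of at least 55% and an observed/expected CpG ratio of at least 0.65, as in CpG islands, which mark many promoters. This held for 2.76% of CHD4 sites with ZFP296 and 11.2% of those without (OR 0.22, interval 0.15 to 0.32, adjusted p = 4.59e-25, Fisher's exact test). It held for 2.42% of ZFP296 peaks on a CHD4 site, 8.53% of those with a CHD4 peak but no site and 16.5% of those with no CHD4 peak. With against without a CHD4 site, it had an OR of 0.17 (interval 0.11 to 0.26, adjusted p = 1.61e-25, Fisher's exact test). The difference was present within TSS windows, where 15.2% of 165 CHD4 sites with ZFP296 and 40.2% of 1464 without it were CpG-rich. Median GC content differed little, at 50% and 50.5%.

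MBD3, the partner subunit of NuRD, was several times more frequent at CHD4 sites with ZFP296. An MBD3 site, present in both MBD3 replicates, lay at 571 of 1267 CHD4 sites with ZFP296 (45.1%, interval 42.3% to 47.9%) and at 721 of 6965 without it (10.4%, interval 9.65% to 11.1%). The OR was 7.10 (interval 6.19 to 8.15, adjusted p = 2.29e-169, Fisher's exact test). In the top quartile of CHD4 values the shares were 67.0% and 19.2%, and in the bottom quartile 23.4% and 4.60%. With all replicate 2 peaks as CHD4 sites, that is without replicate 1, the OR was 13.7. Over quartiles of peak width the common OR was 5.60 (interval 4.85 to 6.47). Outside TSS windows the shares were 46.7% and 11.2%, and inside them 33.9% and 7.10%. Among ZFP296 peaks, MBD3 sites lay at 45.2% of those on a CHD4 site, at 6.89% of those with a CHD4 peak but no site and at 0 of 935 with no CHD4 peak, for which the exact upper bound is 0.394%. There were 1508 MBD3 sites in all, and 1292 CHD4 sites overlapped one, so MBD3 sites lie mostly on CHD4 sites. A low MBD3 share at ZFP296 peaks without CHD4 follows largely from this, here and in the alternative settings. It is no separate result on ZFP296.

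SIN3A sites were likewise more frequent at shared sites. They lay at 354 of 1267 CHD4 sites with ZFP296 (27.9%) and 721 of 6965 without (10.4%), an OR of 3.36 (interval 2.90 to 3.89, adjusted p = 6.93e-54, Fisher's exact test). ZFP296 peaks on and off a CHD4 site had SIN3A at 27.5% and 11.5% (OR 2.91, interval 2.40 to 3.53, adjusted p = 3.41e-28, Fisher's exact test). Unlike MBD3, SIN3A was present at 101 of 935 ZFP296 peaks with no CHD4 peak (10.8%), and 76 of these lay in TSS windows. There were 8843 SIN3A sites against 1508 MBD3 sites, and MBD3 sites lie mostly on CHD4 sites. The 2 proteins are therefore not compared on like terms at these peaks. Of CHD4 sites with ZFP296, 215 of 1267 (16.97%) carried MBD3 and SIN3A together, 356 MBD3 without SIN3A and 139 SIN3A without MBD3, and 557 neither. Of CHD4 sites without ZFP296, 2.30% carried MBD3 and SIN3A together and 81.6% neither.

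NPCs lack the pluripotency programme of ESCs, and their CHD4 peaks show which sites are occupied in both cell types. CHD4 sites of ESCs with ZFP296 overlapped an NPC CHD4 peak at 90 of 1267 (7.10%), and those without ZFP296 at 988 of 6965 (14.2%). The OR was 0.46 (interval 0.37 to 0.58, adjusted p = 1.38e-12, Fisher's exact test), and within TSS windows the shares were 13.3% and 29.5%. Without CHD4 replicate 1 the OR was 0.78. For ZFP296 peaks with and without a CHD4 site the NPC shares were 7.27% and 6.22%, a difference that did not pass the test (OR 1.18, interval 0.88 to 1.59, adjusted p = 0.402, Fisher's exact test). Against peaks with no CHD4 peak, of which 4.71% had an NPC peak, the OR was 1.59 and passed it (adjusted p = 0.0243, Fisher's exact test).

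**Figure D3:**
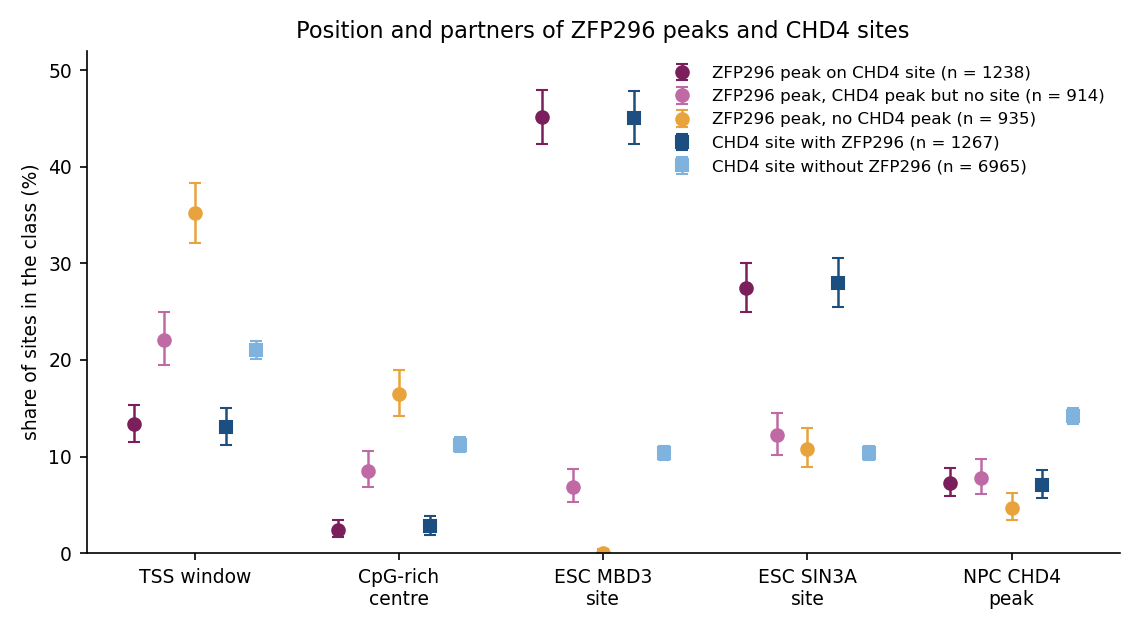
Share of sites (y axis, %) in a TSS window, with a CpG-rich centre, or with an ESC MBD3 site, an ESC SIN3A site or an NPC CHD4 peak, for 3 classes of ZFP296 peaks (circles) and 2 of CHD4 sites (squares), with 95% exact intervals. Shared sites are at 45.2% and 45.1% for MBD3, and ZFP296 peaks with no CHD4 peak are at 0 for MBD3 and 35.2% for TSS windows.

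Short strings that pluripotency factors are known to bind were then counted in the central 200 bp on both strands. Matches describe sequence and not occupancy. The octamer ATGCAAAT, bound by POU5F1, was found in 67 of 1267 CHD4 sites with ZFP296 (5.29%) and 170 of 6965 without (2.44%), an OR of 2.23 (interval 1.64 to 2.999, adjusted p = 1.18e-06, Fisher's exact test). In ZFP296 peaks it was found in 5.98% on a CHD4 site and 3.79% without (OR 1.62, interval 1.14 to 2.29, adjusted p = 0.00948, Fisher's exact test), and in 2.35% of those with no CHD4 peak. In flanks 10 kb away on both sides, 1.34% of the windows around shared CHD4 sites and 0.869% around the others held it, and 1.74% of 32851 RefSeq mouse promoter windows (300 bp, GRCm38.p6) did. By position, 3.80% of shared ZFP296 peaks had an octamer within 50 bp of the midpoint and 0.646% at 900 to 950 bp.

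The SOX2 string CCATTGT was found in 6.63% of CHD4 sites with ZFP296 and 3.76% without (OR 1.82, interval 1.39 to 2.35, adjusted p = 4.00e-05, Fisher's exact test). ZFP296 peaks held it at 6.79% with and 6.003% without a CHD4 site, and the test was not passed (OR 1.14, interval 0.84 to 1.54, adjusted p = 0.488, Fisher's exact test). Strings of ESRRB (CAAGGTCA) and KLF4 (GGGTGTGG) were more frequent at shared sites in both comparisons. ESRRB strings lay in 9.39% against 6.17% of CHD4 sites and in 9.53% against 5.62% of ZFP296 peaks (adjusted p = 0.00014 for each, Fisher's exact test). KLF4 strings lay in 8.76% against 6.45% of CHD4 sites and in 8.56% against 5.14% of ZFP296 peaks (adjusted p = 0.0067 and 0.000427, Fisher's exact test), and the call for CHD4 sites was lost with values of at least 5 (adjusted p = 0.0543). The STAT3 string TTCCNGGAA was found in 1.97% and 1.06% of CHD4 sites with and without ZFP296 (adjusted p = 0.0185, Fisher's exact test), and 3 of its 11 alternative settings gave no call. The GC box GGGCGG went the other way, at 10.8% against 15.0% of CHD4 sites and 8.80% against 13.5% of ZFP296 peaks (adjusted p = 0.000145 for each, Fisher's exact test). AP-1 strings (TGANTCA) differed among ZFP296 peaks, at 7.27% on a CHD4 site and 4.60% without (OR 1.63, adjusted p = 0.00383, Fisher's exact test), and not detectably among CHD4 sites (6.16% and 6.56%, adjusted p = 0.693, Fisher's exact test). Without CHD4 replicate 1, the calls at ZFP296 peaks were lost for the GC box (adjusted p = 0.068) and AP-1 (adjusted p = 0.12, Fisher's exact test). The strings that passed neither test were the E-box CACGTG, the NRF1 string GCGCATGCG, the ETS string CCGGAAG, the CRE string TGACGTCA and the YY1 string AAGATGGCG, and no searched string contains another. In flanks 10 kb away, the GC box lay in 4.18% of windows around shared CHD4 sites and 4.16% around the others. These shares are below those at the sites themselves. AP-1 strings lay in 5.53% and 5.52% of flanks of ZFP296 peaks with and without a CHD4 site. Flanks of shared CHD4 sites held the SOX2 string at 2.33%, ESRRB at 1.58% and KLF4 at 1.97%. Of the promoter windows, 3.66% held the SOX2 string, 1.56% that of ESRRB, 3.56% of KLF4, 1.15% of STAT3, 7.81% of AP-1 and 35.7% the GC box. The shares were 7.15% for the E-box, 1.75% for NRF1, 8.86% for ETS, 1.79% for CRE and 1.40% for YY1. In all, 7 of 13 strings passed the test between CHD4 sites, 6 of them more frequent with ZFP296, and 5 of 13 between ZFP296 peaks, 4 of them more frequent with CHD4.

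**Figure D4:**
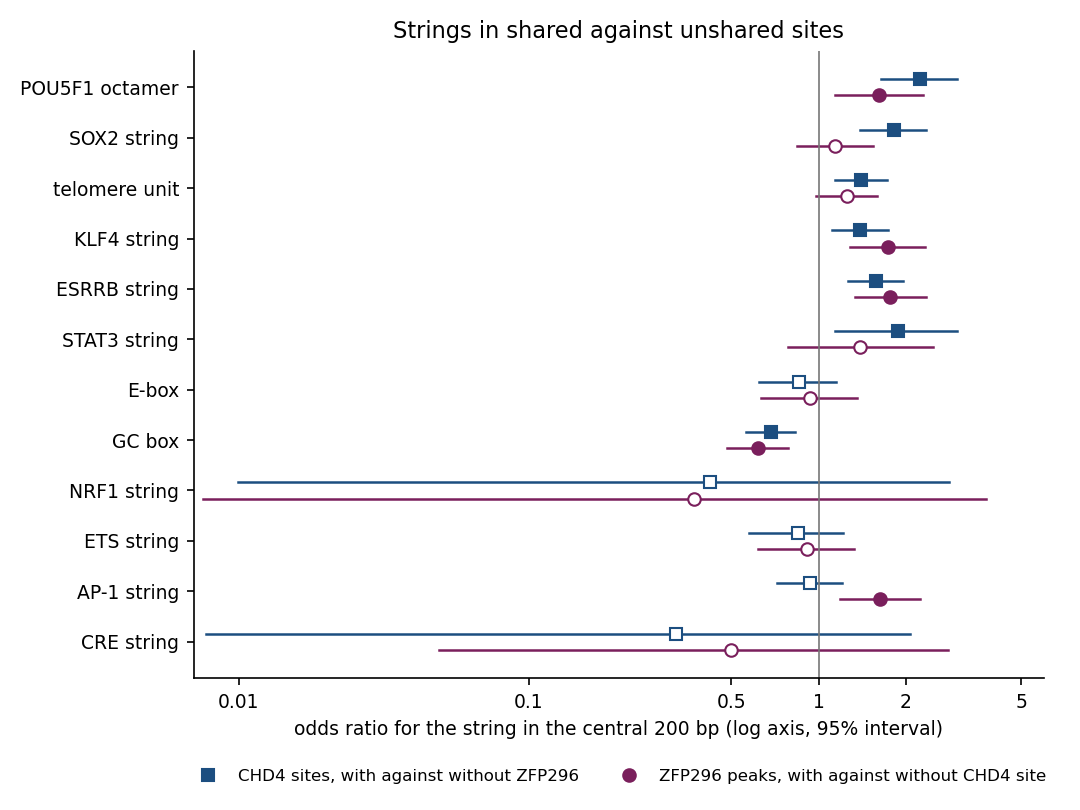
Odds ratios (x axis, log scale, with 95% intervals) for 12 strings in the central 200 bp of shared against unshared sites, for CHD4 sites (squares) and ZFP296 peaks (circles), with filled symbols past the adjusted threshold of 0.05. The octamer, ESRRB and KLF4 strings lie above 1 and the GC box below 1 in both, and the YY1 string, found in 0 shared sites, has no ratio to plot.

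The telomere unit TTAGGG is the sequence that repeats at chromosome ends. At least 1 copy lay in 10.3% of CHD4 sites with ZFP296 and 7.52% without (OR 1.41, interval 1.14 to 1.72, adjusted p = 0.00268, Fisher's exact test). In ZFP296 peaks the shares were 11.6% with and 9.52% without a CHD4 site (OR 1.25, interval 0.98 to 1.59, adjusted p = 0.101, Fisher's exact test). The flanks of shared CHD4 sites held it at 8.05%, and promoter windows at 10.6%. Repeated copies were counted as well. Among ZFP296 peaks, 4 or more copies in 200 bp were found in 12 of 935 with no CHD4 peak and in 0 of 914 and 0 of 1238 of the other classes.

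Genes were then assigned as the nearest protein-coding start within 100 kb of a site. Of 22367 genes, 876 had a ZFP296 peak on a CHD4 site (3.92%), 1393 a ZFP296 peak without a site (6.23%) and 3534 a CHD4 site without ZFP296 (15.8%). In TSS windows the same counts were 170 (0.76%), 559 (2.5%) and 1346 (6.02%). Of the 876 genes, 576 also had a CHD4 site without ZFP296 and 233 a ZFP296 peak without a CHD4 site, so the classes of sites are mixed within genes. The number with 1 shared site was 711, with 2 it was 124 and with 3 or more 41. Genes with wide surroundings collect more sites under this rule, and the counts by list below are descriptions with no test.

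Pou5f1, which encodes the POU factor OCT4, had the most shared sites of all genes, 5, and 6 CHD4 sites without ZFP296. Its shared sites lay 15.4 kb, 3.38 kb, 1.93 kb and 0.906 kb upstream and at the start. ZFP296 values there were 7.71, 9.28, 16.8, 22.6 and 11.3, and CHD4 replicate 1 values 3.94, 15.8, 17.4, 20.1 and 9.40. The strongest of them, at chr17:35641907-35642245, held a SOX2 string and a TTAGGG unit, and all but the most distal overlapped an MBD3 site. The other genes with most shared sites had 4 each: Tns3, a focal adhesion protein, Mapt, which encodes tau, Tgif1, a homeobox repressor that restrains TGF-β signalling, Tmem51, and Spen, a corepressor required for X inactivation. ZFP296 values at these 20 sites ranged from 5.12 (Tgif1) to 38.7 (Tns3), and 13 of them overlapped an MBD3 site.

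Of 20 listed pluripotency genes, 8 had a shared site (40%, against 3.92% of all genes), 8 a ZFP296 peak without a CHD4 site (40%, against 6.23%) and 16 a CHD4 site without ZFP296 (80.0%, against 15.8%). After Pou5f1, Tbx3 had 4 shared sites, Klf4, Prdm14 and Dppa5a 3 each, Tfcp2l1 2, and Sox2 and Klf2 1 each. The Klf4 sites lay 54.8 kb, 56.9 kb and 68.1 kb downstream of the start and each overlapped MBD3 and SIN3A sites, while a ZFP296 peak 0.389 kb past its start (value 5.12) had no CHD4 site. Prdm14, a regulator of naive pluripotency, had a shared site 0.995 kb upstream with a ZFP296 value of 19.1. Dppa5a had all its 3 shared sites within 3.41 kb of the start, with ZFP296 values of 4.77, 12.3 and 21.7, and no other site. Nanog and Zfp42 had 8 and 10 CHD4 sites and no ZFP296 peak assigned. They lie on chromosomes 6 and 8, where 5.98% of CHD4 sites carried ZFP296, against 17.3% on the other chromosomes. Sall4 had 11 CHD4 sites and 1 ZFP296 peak, none of them shared.

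Nodal, BMP and TGF-β pathway genes had shared sites at 9 of 23 (39.1%, against 3.92%). The same list had ZFP296 peaks without a CHD4 site at 8 of 23 (34.8%, against 6.23%) and CHD4 sites without ZFP296 at 14 of 23 (60.9%, against 15.8%). The ligand gene Nodal had 2, at 11.8 kb and 1.88 kb upstream, with ZFP296 values of 10.4 and 11.6 and an MBD3 and a SIN3A site at the nearer. Among mediators and inhibitors, Foxh1, the DNA-binding partner of SMAD2 and SMAD3, had a shared site at its start (value 7.19) with MBD3 and SIN3A. Smad7, an inhibitory SMAD, had 3 shared sites (values 5.43 to 24.2) and Smad6 had 1 (3.84). Ski, a SMAD corepressor, had a shared intronic site of value 36.1 with MBD3 and SIN3A, and Tgif1 had the 4 given above. Of the BMP target genes, Id1, Id3 and Id4 had 1 each, with values of 5.04, 18.5 and 6.69. Smad2, Id2, Lefty2, Bmp4 and Smad3 had ZFP296 peaks, none on a CHD4 site.

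**Figure D5:**
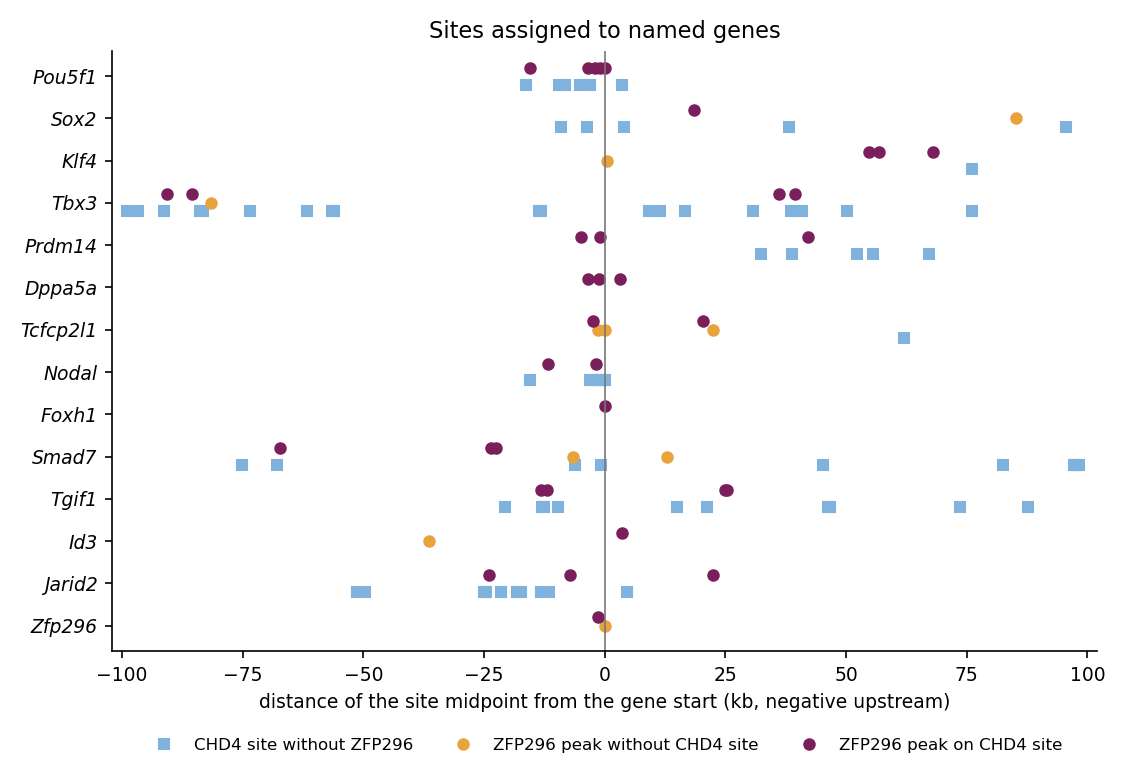
Positions of sites (x axis, kb from the gene start, negative upstream) assigned to 14 named genes, by class: ZFP296 peaks on a CHD4 site, ZFP296 peaks without and CHD4 sites without ZFP296. Pou5f1 has 5 shared sites, 4 of them at its start or within 3.38 kb upstream of it. Tbx3 has 19 CHD4 sites without ZFP296 spread over both sides.

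Of the remaining lists, to be read against 3.92% of all genes, the FGF and ERK pathway had 3 of 16 genes with shared sites (18.8%). These were Fgf4, Fgfr2 and Spry2, an inhibitor of receptor tyrosine kinase signalling with 3 sites. The Fgfr2 model used spans chr7:137305965-140315033 on the minus strand. Its sites were assigned from the end at 140315033, and use of that start was not tested. Spry4 had a shared peak in its TSS window that was assigned to another gene. ZFP296 peaks without a CHD4 site lay at 25% of the list (against 6.23%) and CHD4 sites without ZFP296 at 43.8% (against 15.8%). PRC2 genes had 3 of 9 (33.3%), Jarid2 with 3 sites and Eed and Mtf2 with 1 each. Of the same 9, 33.3% had a ZFP296 peak without a CHD4 site (against 6.23%), and 7 had a CHD4 site without ZFP296 (77.8%, against 15.8%). Wnt genes had 2 of 17 (11.8%), Tcf7l1 1.73 kb downstream of its start (value 10.998) and Gsk3b 0.92 kb upstream (11.7). Unshared ZFP296 peaks lay at 11.8% and unshared CHD4 sites at 41.2% of the Wnt list. NuRD subunit genes had 1 of 15 (6.67%, Mta3), SIN3 subunit genes 0 of 14 and lineage regulators 1 of 15 (6.67%, Otx2, value 19.2, with an MBD3 site). In these 3 lists the shares with unshared ZFP296 peaks were 6.67%, 0% and 13.3%, and with unshared CHD4 sites 26.7%, 28.6% and 26.7%. Ribosomal protein genes, which most cells express highly, had 1 of 76 with a shared site (1.32%, against 3.92%) and 6 of 76 with a ZFP296 peak without CHD4 (7.89%, against 6.23%), 5 of these 6 with one in their TSS window. Of 10 zinc finger genes whose proteins are NuRD partners, Sall1, Zmynd8 and Zfp296 had a shared site (30.0%). Of the same 10, 40% had a ZFP296 peak without a CHD4 site and 50% a CHD4 site without ZFP296.

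Zfp296 itself was among the strongest shared sites. The peak at chr7:20160891-20161529, 1.43 kb upstream of its start, had values of 75.2 for ZFP296, 29.1 for CHD4 replicate 1 and 54.8 for replicate 2, and overlapped an MBD3 site. A ZFP296 peak 0.101 kb from the start (value 17.2) lay on a SIN3A site and on a CHD4 replicate 2 peak (value 18.97), but on no CHD4 site. Further upstream, at 4.27 kb and 3.27 kb and nearer to the start of Gemin7, ZFP296 peaks with values of 30.9 and 5.50 both lay on a CHD4 site with a replicate 1 value of 10.6. The gene also names the BAC of the labelled line, and the part of the transgene in these peaks was not tested.

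The 8 highest peaks of each class are given next. Of all ZFP296 peaks on a CHD4 site, 13.3% lay in TSS windows and 45.2% overlapped an MBD3 site (57.0% in the top quartile of values). The 8 highest of them, with ZFP296 values from 47.7 to 85.8, all lay outside TSS windows, and 7 of 8 overlapped an MBD3 site. They were nearest to Nemf, which acts in ribosome quality control, Hspa8, a constitutive heat shock chaperone, Zfp296, Slc2a1, the glucose transporter GLUT1, Sh3pxd2a, Mocos, Tmem22 and Kcnj12, a potassium channel. At the Nemf peak (ZFP296 value 85.8) CHD4 values were 10.7 and 9.38. ZFP296 peaks with no CHD4 peak were led by Lama1, a laminin chain, at 57.3, then Sfi1 at 44.6, Gm10722 at 40.1, Gm10800 at 39.3, Il31ra at 37.4 and Gm10718 at 29.7. The predicted models Gm10722, Gm10718 and Gm10800 stand in small segments of chromosomes 9 and 2 that held 20 ZFP296 peaks, all of them without a CHD4 peak. ZFP296 has a single list, and whether these peaks reflect binding was not tested. CHD4 sites without ZFP296 were led by an intronic site near Bcar3 (chr3:122137824-122138522) with values of 141 and 161 in the 2 replicates. It was followed by sites near Dll3, a Notch ligand (98.9 and 135), Gpcpd1 (65.4 and 52.9), Fkbp4, an HSP90 co-chaperone (64.2 and 16.3), Rfwd3, a ubiquitin ligase (63.1 and 97.2), Bcl3 (62.4 and 44.6), Pde4a, a cAMP phosphodiesterase (57.4 and 21.2), and Jup, plakoglobin (56.0 and 57.3). None of these 8 overlapped an MBD3 site, and 4 overlapped an NPC CHD4 peak. For all CHD4 sites without ZFP296 the shares were 10.4% and 14.2%, and in the top quartile of values 19.2% and 18.7%.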

How the data were processed

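ChIP-seq peak lists of mouse ESCs and NPCs were used as deposited. The authors aligned reads to mm9 with BWA, kept unique reads without duplicates and called peaks per sample with MACS2 2.0 against input. Peak names mention scaling to a common read number and a threshold of 0.001 for most lists. The deposited value of each peak is a −log10 value, and whether of p or q is not given in the sources used here. The lists hold no read counts, so the depth of each sample is unknown.

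Overlap was at least 1 bp. MBD3 sites were replicate 1 peaks that overlapped a replicate 2 peak. SIN3A sites were peaks of the preparation with spike-in chromatin that overlapped a peak of the preparation without it. Gene starts came from GENCODE for mm9 (22367 protein-coding genes), and sites on chromosomes 1 to 19, X and Y were annotated by midpoint. The 13 strings were searched on both strands of the central 200 bp, and promoter shares came from RefSeq windows of 250 bp before to 50 bp after gene starts. Classes were compared with Fisher's exact test (scipy 1.17.1, Python 3.11.15), with Benjamini-Hochberg adjustment over 36 tests and a threshold of 0.05, and shares have exact Clopper-Pearson 95% intervals. Alternatives covered each replicate, the overlap rule, a minimum value, windows, strata and gene distance. The code was tested on simulated intervals. Named sites were the 8 highest of each class, named genes the 6 with most shared sites and members of 10 lists. Members and lists were chosen with earlier results of these data known. Sequences of further sites are not reported here.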

Additional observations from a re-analysis of the deposited data

How the results depend on the processing

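ZFP296 peaks with CHD4 ranged from 43.1% to 66.1% when a CHD4 replicate was left out (without replicate 2 and without replicate 1), and were 42.6% with midpoints within 500 bp and 35.4% with overlap of at least 50% of the shorter interval. CHD4 sites with ZFP296 ranged from 7.09% without replicate 1 to 11.7% without replicate 2, and were 16.3% and 14.4% under those rules and 17.3% without chromosomes 6 and 8. Genes with both ranged from 936 to 1401 over the CHD4 replicates and were 528 within 20 kb. Without CHD4 replicate 1, ZFP296 peaks differed in 3 strings, the OR for MBD3 rose to 13.7 (CHD4 sites) and 63.3 (ZFP296 peaks), and that for CpG-rich centres was 0.35 and 0.30. Without MBD3 replicate 1 the OR for MBD3 at ZFP296 peaks was 8.25, and with no peak in either CHD4 list as the other class no OR could be given, since 0 peaks had MBD3. The NPC comparison of ZFP296 peaks passed the threshold without CHD4 replicate 1 (OR 1.53, against 1.17 without replicate 2) and against peaks in neither CHD4 list (OR 1.59). Among uncalled strings the OR turned for AP-1 (1.04, CHD4 sites) and CRE (1.31, ZFP296 peaks) with 500 bp, and for SOX2 (0.88) and ETS (1.05) at ZFP296 peaks without CHD4 replicate 1, against 1.29 and 0.85 without replicate 2. The cause was not tested. Calls were lost for KLF4 (CHD4 sites, values of at least 5), STAT3 (CHD4 sites, 3 settings) and, without CHD4 replicate 1, GC box and AP-1 (ZFP296 peaks). Calls were gained at CHD4 sites for the E-box (OR 0.75) and YY1 (0.14) without CHD4 replicate 1 and for NRF1 and YY1 (0.14 each) with 500 bp, and at ZFP296 peaks for ETS (0.66) with 500 bp. Some alternatives were chosen after seeing the data: leaving out chromosomes 6 and 8, both BAC loci, predicted gene models, MBD3 replicates or SIN3A preparations, and width strata. No paired analysis was possible because ZFP296 has 1 list and the tests run over sites, with no replicate number shared between groups compared.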

Other observations

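Chromosomes 6 and 8, looked at after values were seen, held 148 of 3102 ZFP296 peaks (4.77%) and 1389 of 8246 CHD4 sites (16.8%). Of CHD4 sites there, 5.98% carried ZFP296, against 17.3% elsewhere, and of ZFP296 peaks there 56.1% lay on a CHD4 site, against 39.1% elsewhere. The comparisons of classes kept their direction without these chromosomes, and the cause of the uneven distribution was not tested.

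Predicted gene models were the nearest gene for 81 of 935 ZFP296 peaks with no CHD4 peak (8.66%), 35 of 914 with a CHD4 peak but no site (3.83%) and 59 of 1238 on a CHD4 site (4.77%). Among the peaks in TSS windows, the same classes had 31 of 329 (9.42%), 5 of 202 (2.48%) and 13 of 165 (7.88%). CHD4 sites without ZFP296 held 4 or more TTAGGG copies at 2 of 6965.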
